A study of Mus musculus with 6 samples.

Results

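The forkhead, SOX, GATA and KLF genes encode 4 families of DNA-binding transcription factors. The members were taken by name from a table of 23420 genes: every forkhead (Fox), Sox, Gata1 to Gata6 and Klf symbol, without the 4 *Foxo* genes, since *Foxo1* is the gene that was deleted. This gave 82 members, 40 Fox, 19 Sox, 6 Gata and 17 Klf genes. Uterine RNA was sequenced from control females (*Foxo1f/f*) and from *PgrCre/+ Foxo1f/f* females, called *Foxo1d/d* or mutant below, to ask which uterine transcripts depend on FOXO1 at the time of implantation. All animals were C57BL/6J females of 8 weeks (on standard chow by the labels, on a soy-free diet by the methods) that had been mated with vasectomized males, and uteri were taken on day 4.5 of pseudopregnancy. There were 3 libraries per genotype, each from the pooled RNA of 2 females. The deposited values used here are the authors' mean raw count for every gene, with the 3 libraries of a genotype averaged, and a library totalled 26125014 counts on average in the control group and 27257963 in the mutant group. The values therefore carry no spread between pools, and no difference below was tested.

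The model sets limits on the comparison. Cre is expressed from the *Pgr* locus, so recombination takes place wherever PGR is made, which includes the uterine epithelium, stroma and muscle and also the pituitary, the ovary and the mammary gland, from birth on. The deletion takes out the second main coding exon, and reads on the exons that remain are still counted for *Foxo1*. The control mice carry the floxed alleles but no Cre, so the loss of 1 *Pgr* allele is not matched between the genotypes. Cells of the blood vessels and of the immune system can keep FOXO1 in both groups. The samples are whole uteri, and in such bulk RNA fewer cells of a type and less RNA per cell cannot be told apart.

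Forkhead factors bind DNA through a winged helix, SOX factors bend it through an HMG box, and GATA and KLF factors bind it through zinc fingers. In the uterus FOXA2 is required for gland formation, SOX17 and GATA2 act in the progesterone response that prepares for the embryo, KLF5 is needed in the epithelium for implantation, and KLF9 is a partner of the progesterone receptor. Other members mark single cell types, such as SOX18 in endothelium, SOX10 in peripheral glia, FOXJ1 in ciliated cells and FOXP3 in regulatory T cells. KLF2 acts in endothelium and in T cells.

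*Foxo1* itself was looked at first as a check of the labels. On average 3941 reads were counted in control and 1456 in mutant uteri (log2 ratio -1.50, counting interval -1.55 to -1.45). Here and below the log2 ratio is that of *Foxo1d/d* over *Foxo1f/f*, taken with a pseudocount of 1 on each mean count and after division by the total of the genotype. The interval is the 95% Wilson interval from the summed counts without the pseudocount, and it covers counting error only. Where a pair of values follows a gene, the control value comes first. Of the relatives left out of the members, *Foxo3* had a log2 ratio of -0.41, *Foxo4* of -0.13 and *Foxo6*, at 24.7 counts in control uteri, of 0.27.

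The tissue expressed the defining markers of uterus in both genotypes. The stromal genes *Hoxa10* and *Hoxa11* had mean counts of 14268 and 7606 in control and of 13779.7 and 7713 in mutant uteri, and *Pgr* had 5469 and 6551. Of 9 epithelial markers, 8 had a ratio above 0, with a median of 0.28, and their summed level was 796 and 968 CPM (mean counts over the total of the genotype, scaled). Of 7 stromal markers 6 were below 0 (median -0.11; summed level 2846 and 2519 CPM), and of 6 smooth muscle markers all 6 were (median -0.30; summed level 6561 and 5287 CPM). Summed marker RNA of epithelium was thus higher and that of muscle lower in *Foxo1d/d*. The epithelial ratios were uneven, from -0.03 for *Krt18*, 0.07 for *Epcam* and 0.11 for *Cdh1* to 0.86 for *Elf3* and 1.22 for *Krt19*. Of 6 separate gland markers, described below, 4 were lower. The most abundant of each list were *Cdh1* (4438 and 4981 counts), *Myh11* (60677 and 46984) and, in stroma, *Vim* (25858 and 22851), and no marker was at 0. The part of these shares in the results below was not tested. Markers of basal or squamous epithelium were above 0 in 4 of the 5 that passed the filter of 10 counts, with a summed level of 8.64 and 22.7 CPM. Among these, *Krt5* went from a mean count of 37.0 in control to 236 in mutant uteri and *Dsg3* from 67.7 to 29.7, while *Trp63*, the most abundant in control, was at a log2 ratio of 0.08. Genes of the ovary that would mark adjoining tissue, *Cyp19a1*, *Fshr* and *Oosp1*, had mean counts under 2 in both genotypes, while the most abundant ovarian genes listed, *Inha* and *Star*, had 429 and 392 and 419 and 446. Of 3 oviduct markers 2 were above 0, with a summed level of 177 and 196 CPM: *Ovgp1*, the most abundant, had 2923 and 3433 counts (log2 ratio 0.17), *Pax2* had 303 and 527 and was over 1.5-fold higher (log2 ratio 0.74), and *Pax8* was at -0.08. None was at 0, and the part of adjoining tissue in the results was not tested.

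Of the 82 members, 51 reached an average of 10 counts over both genotypes: 20 of 40 Fox, 12 of 19 Sox, 4 of 6 Gata and 15 of 17 Klf genes. Among these 51, 4 were over 1.5-fold higher in *Foxo1d/d* (*Sox11*, *Foxj1*, *Foxc1* and *Sox7*) and 3 over 1.5-fold lower (*Sox10*, *Foxd2* and *Klf2*). Over all 15696 genes past the same filter, 5.43% were past 1.5-fold on the higher side and 3.51% on the lower, so that the members' shares of 7.84% and 5.88%, which rest on 4 and 3 genes, lay near the background. A single member of the 51, *Sox11*, was past 2-fold, or 1.96%, beside 1.99% of all genes higher and 1.402% lower. Smaller differences were more frequent among the members. Past a log2 ratio of 0.32 in either direction lay 22 of the 51 members, 9 higher and 13 lower, while 21.5% of all genes did so, 12.5% higher and 9.00% lower. The median absolute log2 ratio was 0.27 for the members and 0.14 for all genes. In direction the members were mixed: 21 of 51 had a ratio above 0, against 55.1% of all genes, and the median was -0.04 beside 0.02.

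Most Klf genes were below 0, while the other families were split evenly. Of the Klf genes 12 of 15 were lower in *Foxo1d/d*, with a median log2 ratio of -0.25, where 44.9% of all genes were below 0. With ratios centred on the median gene this became 13 of 15, since *Klf4* lay at 0.02 before centring. The Fox genes were split 10 to 10 (median 0.01, or -0.01 after centring) and the Sox genes 6 to 6 (median -0.01), but both spanned wide ranges, from -0.65 to 0.88 and from -0.72 to 1.23. After centring *Sox12* changed sign, which made the Sox genes 5 above and 7 below 0. The 4 Gata genes had ratios between -0.39 and 0.49. Summed over their genes, the Klf family went from 840.1 CPM in control to 724 in mutant uteri, the Fox family from 714 to 672, the Sox family from 618 to 668 and the Gata family from 161 to 200.3. The summed RNA of Klf and Fox genes was thus lower, and that of Sox and Gata genes higher, in the mutant uterus. Single genes carried most of this apart from the Klf family. Without the member whose level differed most, the Fox sum (without *Foxp1*) was 578 and 571 CPM, the Sox sum (without *Sox17*) 484 and 473, the Gata sum (without *Gata2*) 23.4 and 23.2 and the Klf sum (without *Klf6*) 712 and 626, so that the higher Sox and Gata sums rested on *Sox17* and *Gata2*.

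**Figure D1:**
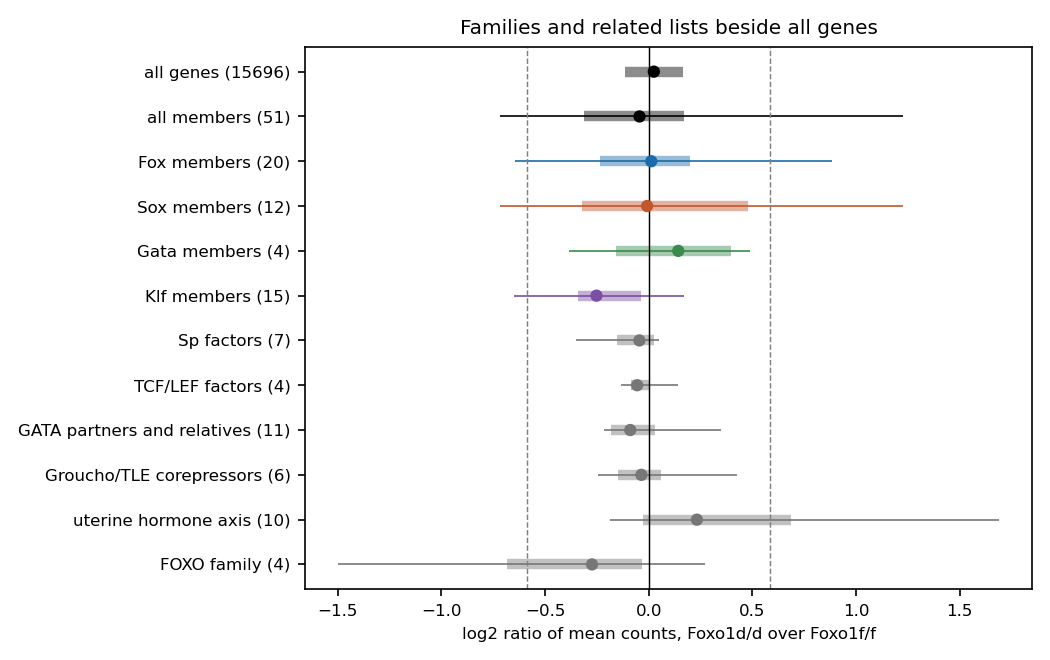
Log2 ratio of mean counts, *Foxo1d/d* over *Foxo1f/f* (x axis), for all genes, the members, each family and related gene lists, with the number of genes past the filter in brackets. Points are medians, thick bars span the quartiles, thin lines span lowest to highest (not drawn for all genes) and dashed lines mark 1.5-fold; the Klf median lies at -0.25 and that of all genes at 0.02.

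To compare genes with each other, CPM values were divided by the length of the transcript in kb. On this scale the highest members in *Foxo1f/f* were *Sox18* at 49.2, *Sox17* at 41.3, *Gata2* at 38.5 and *Klf9* at 34.8. The 10 highest held 5 Klf, 4 Sox and 1 Gata gene and no Fox gene. The highest of the Fox members, which leave out the *Foxo* genes, was *Foxp1* at 19.0. In *Foxo1d/d* the order at the top changed: *Sox17* was at 60.0 and *Gata2* at 49.6, above *Sox18* at 37.1, *Sox13* at 29.9 and *Klf9* at 29.2. These levels are averages over a whole organ and do not say how much RNA is in the cells that express a gene. Among the 51, the largest folds belonged to members at low levels, since *Sox11* was at 0.130, *Foxj1* at 0.185, *Sox10* at 0.179 and *Foxc1* at 0.417 in *Foxo1f/f*, whereas *Klf2* at 26.3 and *Sox7* at 6.49 were past 1.5-fold at higher levels.

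**Figure D2:**
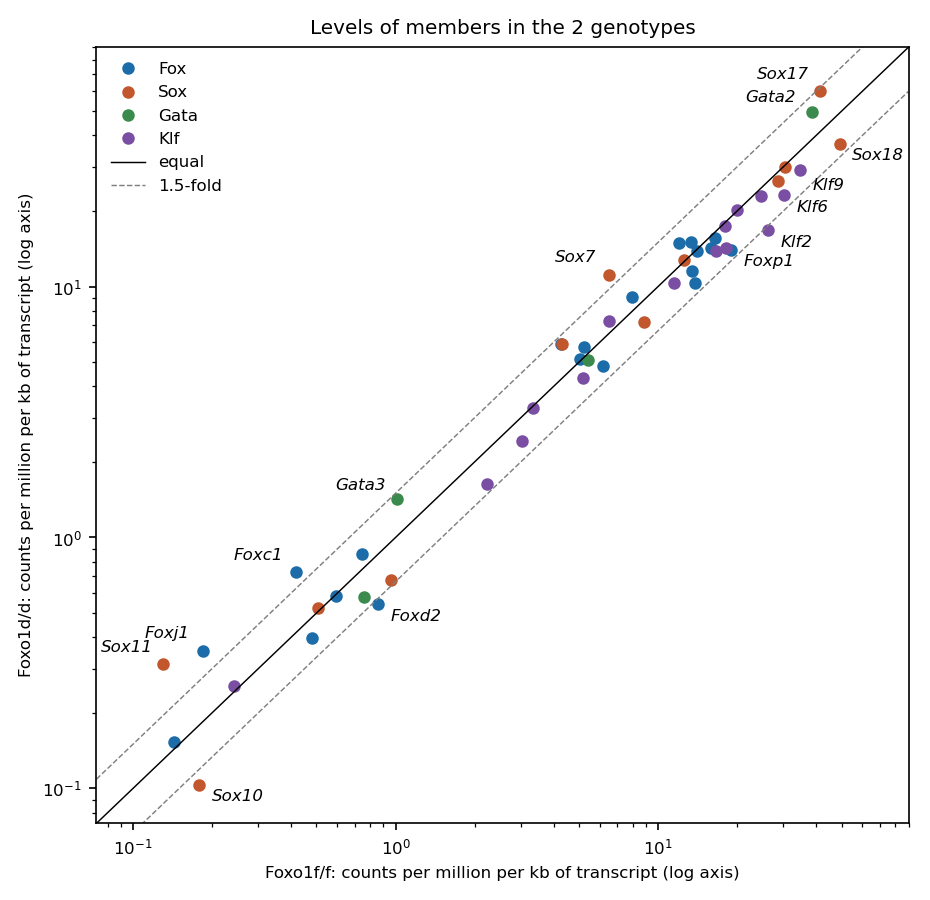
Level of each of the 51 members past the filter in *Foxo1f/f* (x axis) and *Foxo1d/d* (y axis), in CPM per kb of transcript, both on log axes. The solid line marks equal levels and the dashed lines 1.5-fold; *Sox7*, *Sox11*, *Foxc1* and *Foxj1* lie above the upper dashed line, and *Klf2*, *Sox10* and *Foxd2* below the lower one.

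The forkhead genes are described by subfamily. *Foxa2*, the factor of uterine gland epithelium, had a mean count of 279.7 in control and 299.7 in mutant uteri (log2 ratio 0.04, counting interval -0.10 to 0.17). The interval for *Foxa2* held 0, but it covers counting error only, and the spread between pools is not known. Secreted products of the glands behaved otherwise: of 6 gland markers 4 were lower and over 1.5-fold so. The most abundant in control, *Prss29*, had mean counts of 13746 and 652, and *Lif*, which was higher, 854 and 1774. Together the 6 genes gave 879.9 CPM in control and 103 in mutant uteri.

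*Foxc1* and *Foxc2*, factors of mesenchyme and developing vessels, were both above 0. *Foxc1*, on chromosome 13 from 31806646 to 31810635 of GRCm38.p6, averaged 63.7 counts in control and 116 in mutant uteri, 1.74-fold higher (log2 ratio 0.79, counting interval 0.55 to 1.05). For *Foxc2* the counts were 53.0 and 64.0, and the interval held 0 (counting interval -0.09 to 0.51). Both genes lie in clusters of forkhead genes, which allows neighbours to be compared. *Foxc1* shares 252 kb of chromosome 13 with *Foxq1*, an epithelial factor, whose counts were 60.7 and 52.3 (counting interval -0.58 to 0.03), and with the mesenchymal *Foxf2*, which had 3.67 and 2.00. *Foxc2* shares 46.3 kb of chromosome 8 with *Foxl1*, at 2.33 and 2.67, and with *Foxf1*, a factor of mesenchyme and endothelium. *Foxf1* was lower, with 388 and 319 (log2 ratio -0.34, counting interval -0.47 to -0.22). In neither cluster were all genes on the same side of 0.

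*Foxd2*, a factor of embryonic mesenchyme on chromosome 4 from 114906280 to 114908898, was 1.58-fold lower, with mean counts of 58.0 in control and 38.3 in mutant uteri (log2 ratio -0.65, counting interval -0.998 to -0.32). *Foxl2*, known for its role in the ovary and also made in uterine stroma, went from 1024 to 1323, a log2 ratio of 0.31. An antisense gene, *Foxl2os*, shares 12 exon bases with it. *Foxs1*, a gene of pericytes and muscle named here after its values were seen, was also higher, at 146 and 211 (log2 ratio 0.47).

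The FOXP subfamily, which pairs through a leucine zipper and mostly represses, was led by *Foxp1*. It had the highest mean count of the Fox members in control uteri, 3565 in control and 2748 in mutant uteri (log2 ratio -0.44, counting interval -0.48 to -0.40). *Foxp4* was also lower, at -0.22, and *Foxp2* at -0.03. The 4 FOXP genes together had a lower summed level, with 195 CPM in control and 152 in mutant uteri. *Foxp3* of regulatory T cells had only 14.3 and 16.0 counts (log2 ratio 0.09, counting interval -0.49 to 0.69). Its exons overlap those of *Flicr* on the same strand (853 bases). They also overlap *Ccdc22* and *Ppp1r3f* on the opposite strand (590 and 266 bases), so that the counts of *Foxp3* are uncertain. T cell markers were higher beside it: 8 of 8 had a ratio above 0 (median 0.80), with a summed level of 44.3 and 70.6 CPM, and *Il2ra*, a receptor that regulatory T cells carry, had 85.3 and 106. The most abundant, *Lck*, had 613 and 873, and no gene of the list was at 0. Their part in the result for *Foxp3* was not tested.

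*Foxm1*, which drives the genes of mitosis, had 637 and 731 counts (log2 ratio 0.14, counting interval 0.05 to 0.23). Genes of cycling cells lay at similar ratios, with 8 of 9 above 0 and a median of 0.21. With centred ratios 7 of 9 were above 0, as *Cenpf* was at 0.00. The most abundant of them was *Mki67* in control, at -0.02, and *Top2a* in mutant uteri, at 0.18, and the summed level was 447 and 482 CPM. Their part in the result for *Foxm1* was not tested.

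*Foxj1*, the master factor of motile cilia, lies on chromosome 11 from 116330704 to 116335499. Its level was low, and its mean count went from 12.7 to 25.3 counts, 1.92-fold higher (log2 ratio 0.88, counting interval 0.38 to 1.497). Of the ciliated cell list, 6 of 8 genes were in the table under the symbols used and 4, *Foxj1* included, passed the filter. Of these 3 were above 0, namely *Foxj1* itself, *Rsph1* at 0.19 and *Tekt1* at 0.49. The most abundant, *Ccdc39*, was at -0.29 with 365 and 311 counts. The summed level of the list was 18.6 and 17.4 CPM, of which *Ccdc39* gave 14.0 and 11.4. The ciliary genes thus did not move as 1 group with *Foxj1*, and their part in the result was not tested.

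The broadly expressed forkhead genes lay on both sides of 0. *Foxk1*, a factor of metabolism and muscle progenitors, had 3084 and 2889 counts (log2 ratio -0.16), and *Foxk2*, its closest relative, was at 0.17, so that the summed FOXK level was 185 and 182 CPM. *Foxj3* was at -0.08 (2061 and 2033 counts). A like split was seen for *Foxn2* at 0.20 and *Foxn3* at -0.41; *Foxn3*, a repressor named after its values were seen, had 940.0 and 737 counts.

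**Figure D3:**
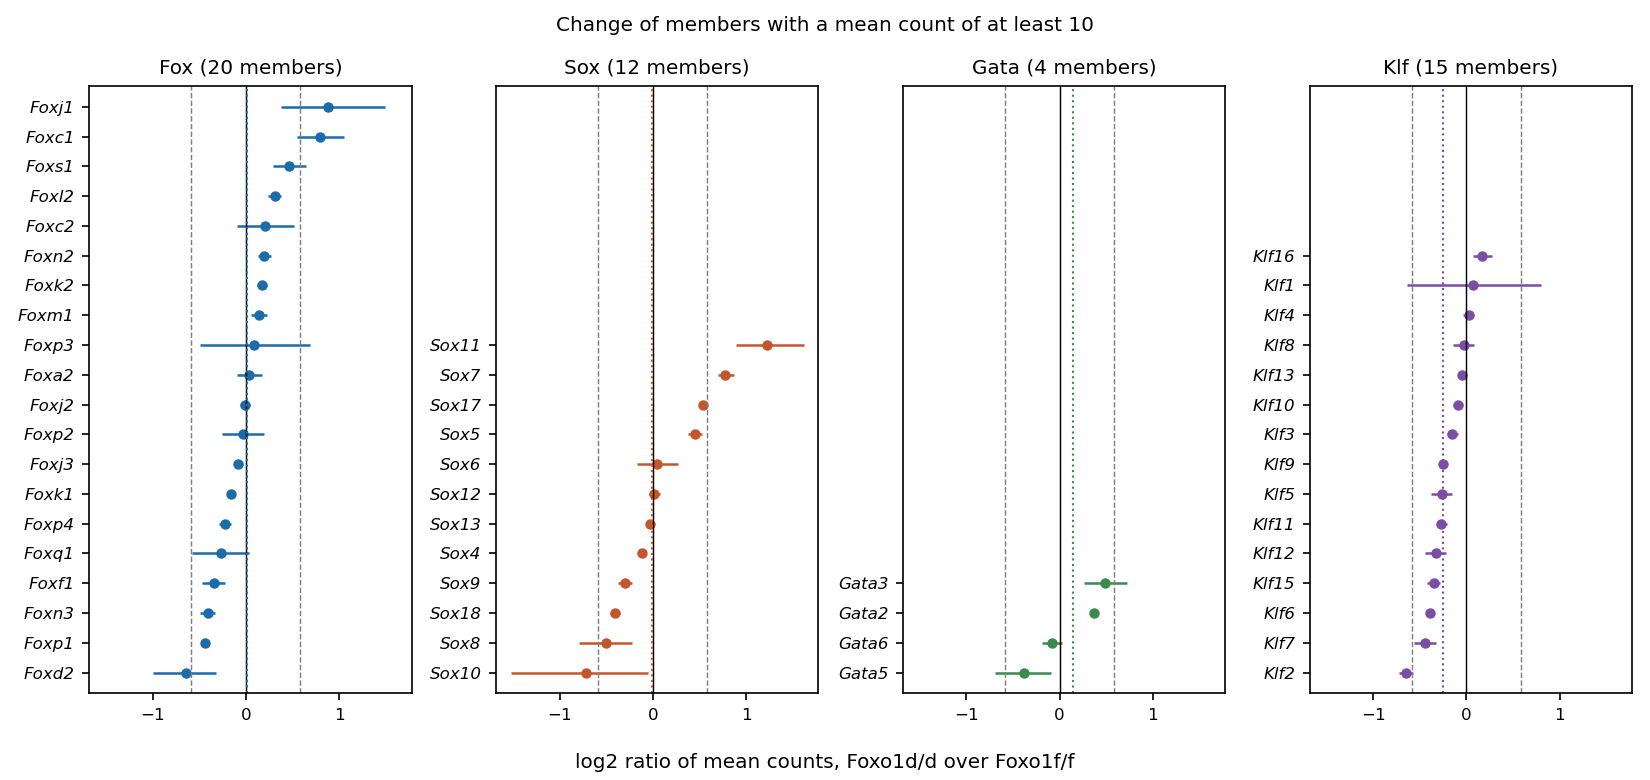
Log2 ratio of mean counts, *Foxo1d/d* over *Foxo1f/f* (x axis), for the 51 members past the filter, in 1 panel per family with genes on the y axis ordered by their ratio. Lines are 95% Wilson counting intervals, dashed lines mark 1.5-fold and the dotted line is the family's median; in the Klf panel 12 of 15 points lie left of 0, and *Klf4*, at 0.02, joins them after centring.

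Among the Sox genes, the 3 of the SOXF subfamily share roles in endothelium. They held the 2 highest levels per kb of transcript and parted in direction. *Sox7*, on chromosome 14 from 63943706 to 63950732, had a mean count of 559.7 in control and 1004 in mutant uteri, 1.72-fold higher (log2 ratio 0.78, counting interval 0.70 to 0.87). *Sox17*, on chromosome 1 from 4490928 to 4497426, which the uterine epithelium expresses besides the vessels, went from 3496 to 5306, 1.45-fold higher (log2 ratio 0.54, counting interval 0.51 to 0.58). *Sox18*, on chromosome 2 from 181669837 to 181671640, was 1.33-fold lower, with 2084 and 1640.0 counts (log2 ratio -0.41, counting interval -0.46 to -0.35). *Sox7* and *Sox17* were thus both higher while *Sox18*, whose expression is the most restricted to vessels, was lower, and the intervals of the 3 genes did not touch 0 or, between *Sox18* and the other 2, each other. Their summed level was 235 CPM in control and 292 in mutant uteri.

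Markers of endothelium were compared beside them. Of 9 markers 8 had a ratio below 0 (9 of 9 after centring, since *Flt1* was at 0.01), with a median of -0.21. The ratios of those 8 lay close together, from -0.24 for *Emcn* to -0.18 for *Esam*. The most abundant, *Pecam1*, had 9743 and 8701 counts, the summed level was 1807 and 1569.7 CPM, and no marker was at 0. All 4 lymphatic markers were below 0 as well (median -0.23), with a summed level of 147 and 126 CPM and *Flt4* the most abundant at 1706 and 1511 counts. *Sox18* at -0.41 and *Klf2* at -0.65 were further below 0 than each of the 9 endothelial markers, but the lymphatic *Prox1* was at -0.53, and *Sox7* and *Sox17* stood on the other side of 0. The part of the endothelial share of RNA in these results was not tested.

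**Figure D4:**
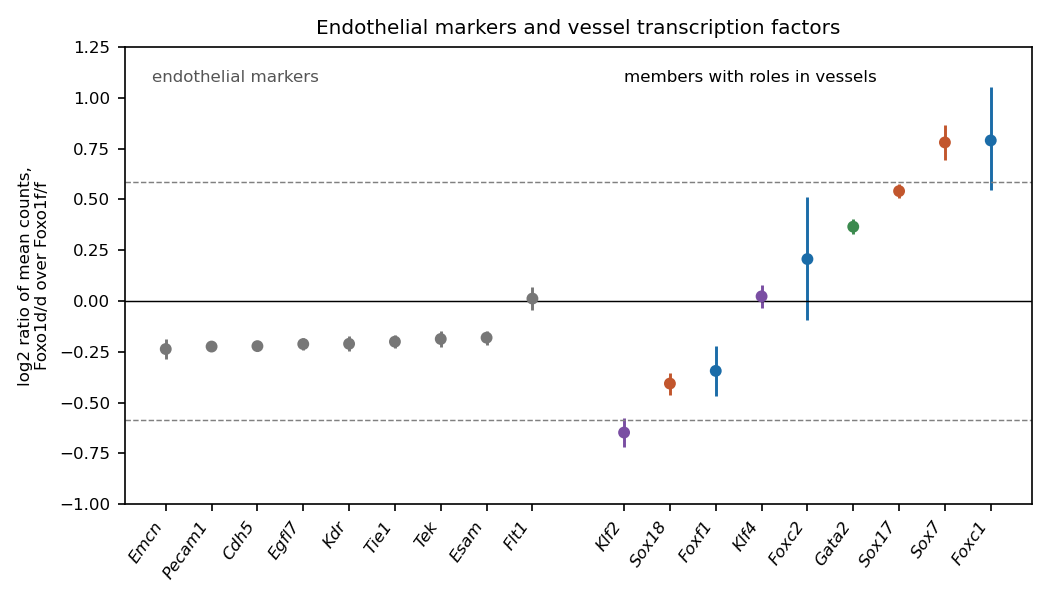
Log2 ratio of mean counts, *Foxo1d/d* over *Foxo1f/f* (y axis), for 9 endothelial markers (grey) and 9 members with roles in vessels, a set chosen after the values were seen, coloured by family (blue Fox, orange Sox, green Gata, purple Klf). Lines are 95% Wilson counting intervals and dashed lines mark 1.5-fold; 8 of 9 markers lie between -0.24 and -0.18, while the members spread from -0.65 for *Klf2* to 0.79 for *Foxc1*.

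The SOXC subfamily acts in progenitor cells and held the largest fold among the 51 members past the filter. *Sox11*, on chromosome 12 from 27334268 to 27342718, went from a mean count of 28.3 in control to 70.7 in mutant uteri, 2.39-fold higher (log2 ratio 1.23, counting interval 0.90 to 1.62). Its relatives did not share this. *Sox4*, with 3574 and 3454 counts, was at -0.11, and *Sox12* at 0.02, or -0.01 after centring. Since *Sox4* supplied most of the subfamily's RNA, the summed SOXC level was 194 and 186 CPM.

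All 3 SOXE genes were lower. *Sox9*, which gland epithelium expresses, had 958 and 814 counts (log2 ratio -0.30, counting interval -0.37 to -0.22), *Sox8* was at -0.50 and *Sox10* at -0.72. *Sox10*, on chromosome 15 from 79154913 to 79164490, is a glial gene and was near the filter, with 12.7 and 7.67 counts (1.72-fold lower, counting interval -1.52 to -0.05), and it passed the filter through the *Foxo1f/f* group.

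Of the SOXD genes, whose proteins have no activation domain of their own, *Sox13* had the third highest mean count of the family, 2949 and 3011 (log2 ratio -0.03). *Sox6* was at 0.05, while *Sox5*, which was named after its values were seen, was higher, at 812 and 1164 counts (log2 ratio 0.46, counting interval 0.38 to 0.53). *Sox2*, of the SOXB1 stem cell factors, had 1.67 and 1.33 counts, too few for a comparison.

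The GATA genes separated by subgroup. *Gata2*, which acts upstream of *Pgr* in the uterus, had 3591 counts in control and 4828 in mutant uteri and was 1.29-fold higher (log2 ratio 0.37, counting interval 0.33 to 0.40). *Gata3*, a factor of T cells and epithelia, was 1.41-fold higher, at 85.3 and 125 (log2 ratio 0.49, counting interval 0.26 to 0.72). Of the heart and gut subgroup, *Gata6*, made in stroma and muscle, was at -0.08 (counting interval -0.19 to 0.03), and *Gata5* at -0.39, with 65.0 and 51.7 counts. The 2 blood and epithelial factors were thus above 0 and the 2 others below, though the interval of *Gata6* held 0. *Gata1* and *Gata4* had mean counts under 3 in both genotypes.

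Blood cells are another source of *Gata2* and *Gata3*. Mast cells, which need GATA2, had 6 of 6 markers below 0 (median -0.43; summed level 124 and 91.6 CPM), with *Kit* the most abundant at 2193 and 1681 counts, so their direction was opposite to that of *Gata2*. T cell markers, given above, were higher, as *Gata3* was. Natural killer cell markers were above 0 in 5 of 6 (median 0.28; summed level 108 and 134 CPM; most abundant *Gzmb* in control, at 767 and 793 counts, and *Ncr1* in mutant uteri, at 715 and 968), and all 6 macrophage markers found were (median 0.22; 524 and 615 CPM; most abundant *Lyz2*, at 6356 and 7975 counts). None of these 3 lists had a gene at 0. Their part in the *Gata* results was not tested.

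Partners and zinc finger relatives of GATA factors, taken as 1 list, were near 0, with 3 of 11 above it and a median of -0.09. Among the genes above 0 were the relatives *Gatad1* at 0.07 and *Gatad2a* at 0.14. *Zfpm1*, the FOG cofactor of GATA1, was the highest at 0.35 (454 and 603 counts), and *Tal1* and *Lmo4* were the lowest, both at -0.22. In the hormone axis around *Gata2* and *Sox17*, 7 of 10 genes were above 0 (median 0.23) and 4 over 1.5-fold higher. *Pgr* had a log2 ratio of 0.20 and *Ihh*, the epithelial signal downstream of PGR, of 0.60, with 796 and 1260.3 counts. *Ltf*, an estrogen-induced gene, went from 559 to 1885, while the stromal *Nr2f2* and *Hand2* were at -0.12 and -0.06.

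The Klf genes were mostly lower, each by less than 1.5-fold apart from *Klf2*. *Klf2*, which blood flow induces in endothelium and which keeps T cells quiescent, lies on chromosome 8 from 72319062 to 72321654. Its mean count was 1271 in control and 846 in mutant uteri, 1.57-fold lower (log2 ratio -0.65, counting interval -0.72 to -0.58). The ratio lay below those of the endothelial markers, whereas the T cell markers were above 0. *Klf4*, which overlaps *Klf2* in endothelial function and is also epithelial, was at 0.02 (counting interval -0.03 to 0.08), with 1579 and 1674 counts. The counting intervals of the pair did not overlap.

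Among the other activating KLF genes, *Klf6*, an immediate early gene, went from 3345 to 2662 (log2 ratio -0.39, counting interval -0.43 to -0.35) and *Klf5*, the epithelial factor of implantation, from 455 to 395 (log2 ratio -0.26, counting interval -0.38 to -0.15). *Klf7*, named after its values were seen, was at -0.44. *Klf1*, the erythroid factor, passed the filter narrowly with 9.67 and 10.7 counts, and its interval ran from -0.64 to 0.80. In the erythroid list 4 globin genes were listed at 0 in both genotypes, and *Alas2*, its most abundant gene, had 147 and 403 counts. Of its 7 genes 2 passed the filter, 1 of them above 0, with a summed level of 7.34 and 16.3 CPM, and their part in the result for *Klf1* was not tested. The summed level of the activating subgroup was 272 CPM in control and 218 in mutant uteri.

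The subgroup that represses through Sin3A held the Klf gene with the most counts. *Klf9*, the partner of PGR, had 4081 and 3575 counts (log2 ratio -0.25, counting interval -0.29 to -0.21). *Klf13*, its closest relative, was at -0.04 with 2994 and 3029 counts (counting interval -0.09 to -0.002). Both intervals lay below 0, that of *Klf13* only narrowly. The TGF-beta induced *Klf10* and *Klf11* were at -0.09 and -0.27, and *Klf16* at 0.17 was the highest Klf gene. The summed level of the subgroup was 431 and 389 CPM. *Klf15*, a glucocorticoid-responsive gene of metabolism, went from 1128 to 923 (log2 ratio -0.35, counting interval -0.42 to -0.28). The 3 repressors that bind CtBP, *Klf3*, *Klf8* and *Klf12*, were all below 0, at -0.15, -0.03 and -0.33.

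Sp factors, which share the zinc fingers of the KLF proteins and bind the same GC-rich sites, were nearer to 0 by their median. Of 7 that passed the filter 3 were above 0, or 2 after centring, as *Sp3* was at 0.01. Their median was -0.04, and *Sp1*, the most abundant, was at -0.08 with 5579.7 and 5522 counts. TCF/LEF factors, the HMG box relatives of SOX, had a median of -0.06 over 4 genes. The Groucho/TLE corepressors, which several of these families recruit, had a median of -0.04 over 6 genes, with *Tle3* the highest at 0.42 (2393 and 3351 counts).

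Promoter windows of 300 bases from RefSeq (GRCm38.p6), 250 before and 50 after the start, were found for 56 of the 82 members. They were searched on both strands for the forkhead core GTAAACA, which reads TGTTTAC on the other strand, to show which members carry the letters that forkhead proteins bind. The core was in 3 of 68 windows of members and in 3.65% of all 32851 windows. The 3 genes were *Klf9*, *Sox12* and *Foxa1*. For the pair that passed the filter, the bases around the core are shown with the core in capitals, on the strand of the gene.
Klf9, chr19:23141096-23141162, plus strand: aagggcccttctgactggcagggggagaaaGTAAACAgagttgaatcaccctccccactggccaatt
Sox12, chr2:152398117-152398183, minus strand: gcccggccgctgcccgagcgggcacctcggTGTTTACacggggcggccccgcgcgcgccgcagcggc
The core starts 100 bases before the start of *Klf9* and 107 before that of *Sox12*. *Klf9* had a log2 ratio of -0.25 and *Sox12* of 0.02, and a match of letters is a description of the window, not a site of binding. Among passing members without a window in the table were *Sox7*, *Sox17*, *Sox18*, *Foxj1*, *Foxf1*, *Sox9*, *Klf5* and *Foxm1*.

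The other 31 members did not reach a mean count of 10, and none of them reached it in either genotype alone. They were 20 Fox, 7 Sox, 2 Gata and 2 Klf genes. Of these, 7 Fox genes had no count in any library. A summed count of 0 allows up to 3 counts, which is 0.0383 CPM in control and 0.0367 in mutant uteri. In 16 of the 31, the 7 included, the summed counts of both genotypes were at or under 3, and no fold is given. *Foxi3*, an ectodermal factor, had 0 summed counts in control and 22 in mutant uteri, at least 7.03-fold higher against a floor of 3 counts over the group. *Sox21*, a neural factor, had 7 and 0, at least 2.43-fold lower. Both were named after their values were seen. Without counts of single libraries it is not known how many pools hold these reads. Of the 51 members above the filter, *Sox10* and *Klf1* were below a mean count of 10 in 1 genotype.

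Counting intervals show how far depth alone limits these statements. Of the 51 members 14 had an interval above 0, 24 an interval below 0 and 13 an interval that held 0, and the genes of the last group are those with few counts or ratios near 0. Such intervals leave out the variation between mice, which can be larger than counting error for abundant transcripts. By GENCODE vM21, exons of 16 of the 51 overlap exons of another gene, 14 of them on the opposite strand. The most shared bases were found for *Foxq1* (3200), *Klf7* (3196), *Sox4* (2616), *Sox5* (1330), *Foxp3* (853) and *Sox17* (804), and the others, which include *Klf3*, *Sox8*, *Foxp1*, *Gata5*, *Gata3* and *Foxl2*, shared at most 404 with a partner. Counts of these genes are uncertain as far as reads of the partner were counted with them.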

How the data were processed

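RNA was isolated from uteri of 3 pools of 2 females per genotype and sequenced. The authors trimmed paired-end reads, used STAR for mapping to mm10, picard to remove duplicates and HTSeq to count reads per RefSeq gene; versions are not stated, and the submitters' processing notes list mm9. The deposited table holds the authors' mean raw count per genotype, and also the authors' EdgeR fold change, average log2 CPM, p-value and FDR, which were not used. Groups were matched to the columns by their names, WT and KO. The number of other columns of single samples is 0.

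Mean counts were scaled by the genotype total, and log2 ratios were computed with a pseudocount of 1 (Python 3.11.15, pandas 2.3.3). Members were called past 1.5-fold when their counts averaged at least 10 over both genotypes. Wilson intervals (scipy 1.17.1) used the summed counts, 78375043 and 81773890. Folds are without the pseudocount and, against 0 counts, use a floor of 3 counts over the group. No test was run, because 1 pooled value per genotype has no spread. The planned length of the longest RefSeq transcript was replaced by that of the longest GENCODE vM21 transcript paired with a RefSeq mRNA. A planned description of proteins was not made. The planned glial markers and the names of members without counts are not reported here. Members named by rule are those past 1.5-fold, the 3 with the highest mean count in *Foxo1f/f* per family, and 31 with known roles; other members were named after their values were seen. Members and lists were chosen with earlier results of these data known. Alternatives were a pseudocount of 0.1, ratios centred on the median of genes averaging at least 50 counts, totals without the 10 most abundant genes, filters of 1 and 50, and thresholds at a log2 ratio of 0.32 and of 1. The steps were tested on simulated data.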

Additional observations from a re-analysis of the deposited data

How the results depend on the processing

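The counts of members past the fold depended on the filter and the threshold, as their construction implies. With a mean count of at least 1, 7 of 65 members were over 1.5-fold higher and 8 lower (10.8% and 12.3%, beside 7.52% and 5.13% of all genes), in place of 4 and 3 of 51. With at least 50 they were 2 and 1 of 45 (4.44% and 2.22%, beside 3.81% and 2.58%). Past a log2 ratio of 0.32 they were 9 and 13 (17.6% and 25.5%, beside 12.5% and 9.00%), and at 2-fold 1 and 0. The median of the Gata members went from 0.14 to -0.071 with a mean count of at least 1, which adds *Gata1* and *Gata4*. The other medians moved by less than the counting intervals of their genes under the alternatives tried, and so did the 35 members named by rule under the other pseudocount and scalings. Under these, *Klf4* alone among the 35 changed sign, from 0.023 to -0.00065 with centred ratios. Centring lowered all ratios by 0.02, and leaving out the 10 most abundant genes moved them by less. The number of Klf members below 0 was 12 or 13 and the median of the endothelial markers lay between -0.23 and -0.21 over their alternatives, which were chosen after seeing the data. So was leaving out the member of each family whose level differed most, which took the log2 ratio of the summed level from -0.09 to -0.017 for Fox, 0.11 to -0.032 for Sox, 0.32 to -0.014 for Gata and -0.22 to -0.186 for Klf genes. No paired analysis was possible because only the mean count of each genotype was used. For the same reason no library could be left out, and differences between pools, the depth of single libraries and batches could not be examined. Genes with few counts, such as *Sox10*, *Foxj1* and *Foxp3*, are limited by depth.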
